A study of Saccharomyces cerevisiae with 12 samples.

Results

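Ribonucleotide reductase and its checkpoint control were followed through 8 budding yeast genes, RNR1, RNR2, RNR3, RNR4, HUG1, SML1, DUN1 and RFX1. The cultures were designed to lose the cohesin loader subunit Scc2 or to carry a mutant form of it, beside WT. RNA levels do not show how much Scc2 protein was left. The genes were taken by symbol from a table of 7036 features, and all 8 passed the filter that left 6097 features for testing. The rule goes by symbol alone, and it was set with earlier results of these data known. The question was whether the transcripts of a DNA damage response are present after Scc2 loss.

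The 12 cultures were Saccharomyces cerevisiae W303 cells of mating type a. Every strain, WT included, carried the alleles can1-100, trp1-1, ade2-1 and his3-11,15 and the leu2 allele of W303. Each also held OsTIR1 (pMK200, URA3), a plant F-box protein, under the ADH1 promoter at ura3-1, and a chromosomal SCC2-AID*-6FLAG-HYG copy whose protein OsTIR1 marks for degradation once auxin is added. A pRS413 plasmid with the HIS3 marker supplied scc2-R787G-7MYC (R787G), scc2-G1242V-7MYC (G1242V), no SCC2 (labelled null, here empty vector) or SCC2-7MYC (WT). There were 3 libraries per plasmid, each from cells taken 3 h after auxin was brought to 1 mM. All cultures received auxin, so none shows the state before degradation. The growth notes speak of duplicate cultures for the empty vector, while the table holds 3 libraries. The labels do not say whether cultures came from separate transformants, so p-values measure the spread between these libraries.

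Ribonucleotide reductase makes deoxyribonucleotides from ribonucleotides and sets the supply of DNA precursors. In budding yeast Rnr1 forms the main large subunit, Rnr3 is a large subunit made after DNA damage or replication stress, and Rnr2 with Rnr4 forms the small subunit. Sml1 binds and inhibits Rnr1. On damage, the kinases Mec1 and Rad53 activate the kinase Dun1, which leads to removal of Sml1 and releases the repressor Rfx1 (also called Crt1) from X-box sequences upstream of RNR2, RNR3, RNR4 and HUG1. A rise of RNR3 and HUG1 RNA is therefore a common readout of this pathway, while RNR1 is mainly a G1/S gene under the factor MBF.

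Upstream stretches are shown for 5 of the genes that hold letters of the X-box or of the MBF element, the sequences named for these 2 kinds of control. RNR4, which also holds X-box letters, is not shown, and the RNR1 stretch leaves out X-box letters nearer the start codon. They were read from the RefSeq R64 reference of strain S288C, the assembly called sacCer3, while the cultures were W303. Capitals mark the X-box core GTTGCC or its reverse complement and the MBF element ACGCGT, called MCB. Each line runs 5′ to 3′ on the strand of its gene.
RNR1, chrV:298450-298749, plus strand, 500 to 201 bases before the start codon: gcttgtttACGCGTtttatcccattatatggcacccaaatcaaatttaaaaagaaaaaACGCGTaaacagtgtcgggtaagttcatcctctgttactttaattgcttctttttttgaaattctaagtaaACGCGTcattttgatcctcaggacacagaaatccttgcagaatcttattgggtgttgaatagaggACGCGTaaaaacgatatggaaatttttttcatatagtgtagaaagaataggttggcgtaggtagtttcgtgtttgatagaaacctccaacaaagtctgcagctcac
RNR2, chrX:391904-392203, plus strand, 500 to 201 bases before the start codon: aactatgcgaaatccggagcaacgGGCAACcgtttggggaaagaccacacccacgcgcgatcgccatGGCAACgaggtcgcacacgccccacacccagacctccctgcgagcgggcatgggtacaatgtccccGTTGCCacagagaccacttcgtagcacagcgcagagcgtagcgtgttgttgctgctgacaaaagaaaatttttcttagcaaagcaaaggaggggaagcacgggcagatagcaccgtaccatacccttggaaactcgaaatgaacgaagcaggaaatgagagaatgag
RNR3, chrIX:240709-241008, minus strand, 300 to 1 bases before the start codon: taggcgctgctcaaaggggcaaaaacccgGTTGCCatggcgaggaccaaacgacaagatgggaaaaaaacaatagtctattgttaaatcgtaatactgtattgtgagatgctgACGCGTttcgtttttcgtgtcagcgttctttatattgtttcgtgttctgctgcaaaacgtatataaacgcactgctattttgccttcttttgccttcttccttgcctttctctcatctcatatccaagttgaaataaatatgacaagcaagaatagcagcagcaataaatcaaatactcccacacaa
HUG1, chrXIII:158460-158759, plus strand, 300 to 1 bases before the start codon: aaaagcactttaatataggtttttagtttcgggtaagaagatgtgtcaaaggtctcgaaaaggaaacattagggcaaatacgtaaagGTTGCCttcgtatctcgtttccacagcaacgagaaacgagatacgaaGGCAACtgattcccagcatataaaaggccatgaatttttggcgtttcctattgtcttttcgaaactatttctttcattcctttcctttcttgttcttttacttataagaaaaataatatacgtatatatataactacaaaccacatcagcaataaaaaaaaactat
DUN1, chrIV:281849-282098, minus strand, 250 to 1 bases before the start codon: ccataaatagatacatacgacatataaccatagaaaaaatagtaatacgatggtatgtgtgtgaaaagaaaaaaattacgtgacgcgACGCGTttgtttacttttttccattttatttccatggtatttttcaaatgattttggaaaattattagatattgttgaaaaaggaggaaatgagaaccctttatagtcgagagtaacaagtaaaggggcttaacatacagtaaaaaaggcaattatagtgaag

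The 500 bases before each start codon were searched on both strands, a palindrome such as ACGCGT being counted once. RNR1 had 4 MCB letter runs, at 492, 442, 371 and 306 bases before the start, and 1 X-box core at 169. Of 6000 windows of the same length before protein-coding genes, 325 (5.42%) held an MCB and 1 (0.0167%), that of RNR1, held 4 or more. RNR2 had 3 X-box cores and HUG1 had 2 on opposite strands, at 213 and 166 bases, while RNR3 and RNR4 had 1 each, at 271 and 386. The core was in 821 windows (13.7%) and 3 or more cores in 5 (0.0833%). A longer run, GTTGCC followed directly by ATGG, which contains the core, was present before RNR2 and RNR3 and in 10 of the 6000 windows (0.167%). RNR3 also had an MCB at 187 and DUN1 had 1 at 163. The windows of SML1 and RFX1 held neither the core nor the MCB. Those of RNR2, SML1 and DUN1 overlap the neighbouring genes YJL027C, HUG1 and GET3. A match is a description of letters, not of a bound site.

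**Figure D1:**
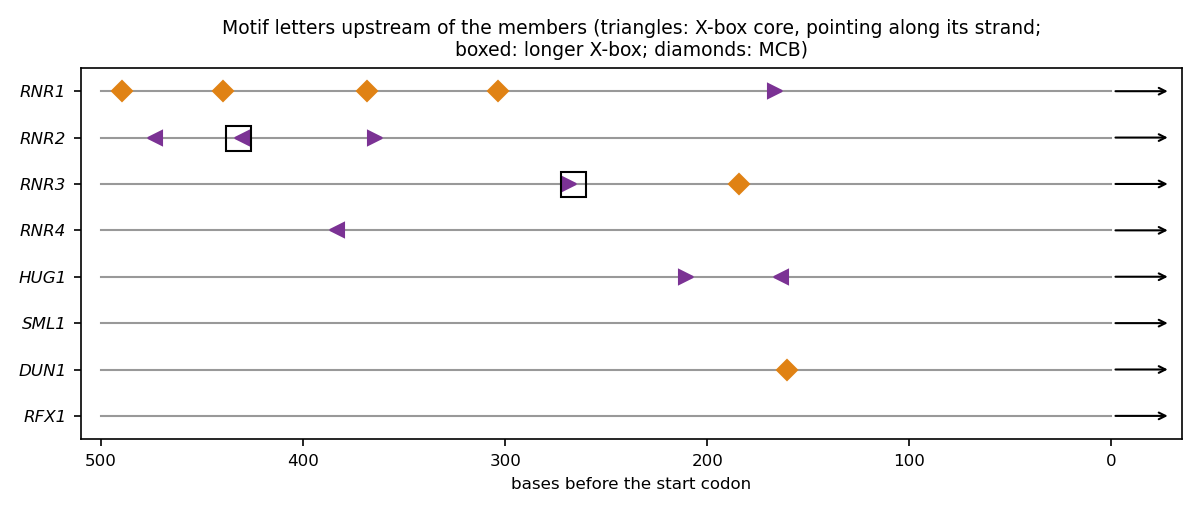
Positions of motif letters in the 500 bases before the start codon of each gene, in bases (horizontal axis); purple triangles are X-box cores pointing along their strand, black boxes the longer X-box and orange diamonds the MCB. RNR1 holds 4 MCB runs, RNR2 holds 3 X-box cores, and SML1 and RFX1 hold none of these.

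Levels are TPM (transcript abundances corrected for transcript length) scaled between libraries, and read depth is unknown. The SCC2 RNA in the libraries labelled G1242V was unequal, at 51.2 scaled TPM in library 1, 93.2 in library 2 and 12.4 in library 3, against 86.5 to 99.6 in R787G, 12.1 to 12.8 in empty vector and 109 to 128 in WT. HIS3 RNA, whose marker gene is on the plasmid, was at 2498, 1042 and 2780 in those libraries, against 872 to 1353 in R787G, 2423 to 3500.2 in empty vector and 796 to 900.0 in WT. Both genes thus stood in library 3 at about their empty vector levels. In library 1 HIS3 lay within its empty vector range, while SCC2 lay between its empty vector and R787G levels. The levels of the 8 genes in the libraries labelled G1242V are given by library. Of the mating-type markers, 5 a-cell genes summed to 359 to 623 scaled TPM per library and 4 alpha-cell genes to 32.6 to 56.1, with none at 0 in all libraries. Scaling factors ran from 0.904 to 1.03 in 11 libraries, and empty vector library 3 stood apart at 1.19.

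RNR1 (YER070W, chromosome V, 298950 to 301616, plus strand), the main large subunit gene, was low in level, at a mean of 12.3 scaled TPM over the 12 libraries. It stood at 13.7, 13.4 and 15.0 in R787G, 9.95, 13.1 and 10.2 in libraries 1, 2 and 3 labelled G1242V, 10.2, 7.76 and 10.8 in empty vector, and 14.2, 13.1 and 16.6 in WT. All empty vector libraries lay below all WT and all R787G libraries. RNR1 fell in empty vector, by 0.57 on the log2 scale (SE 0.13), to 9.57 ± 1.60 against 14.6 ± 1.75 in WT (SD, n = 3 each; limma adjusted p = 0.0491). Between R787G and WT the log2 fold change was -0.05 (95% interval -0.34 to 0.23). R787G over empty vector was 0.52 (SE 0.13), with an adjusted p of 0.0642 by limma.

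RNR3 (YIL066C, chromosome IX, 238099 to 240708, minus strand), the damage-induced large subunit gene, was low in every culture. It stood at 6.70, 7.08 and 6.99 scaled TPM in R787G, 6.23, 6.35 and 6.10 in the libraries labelled G1242V, 6.17, 6.15 and 6.76 in empty vector, and 5.68, 6.40 and 6.44 in WT. The empty vector and WT libraries overlapped, while every R787G library lay above every WT library by a small margin. The log2 fold change of empty vector over WT was 0.04 (SE 0.08, limma adjusted p = 0.767). Its 95% interval, as a fold of scaled TPM + 1, ran from 0.91 to 1.16. The log2 fold change of R787G over WT was 0.14 (SE 0.08, limma adjusted p = 0.802). RNR3 was 5625th of 6097 features by mean level. The coding sequences of RNR1 and RNR3 were 75.4% identical when aligned end to end, but shared none of their 50-base words, so no error-free 50-base read would match both in the reference.

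**Figure D2:**
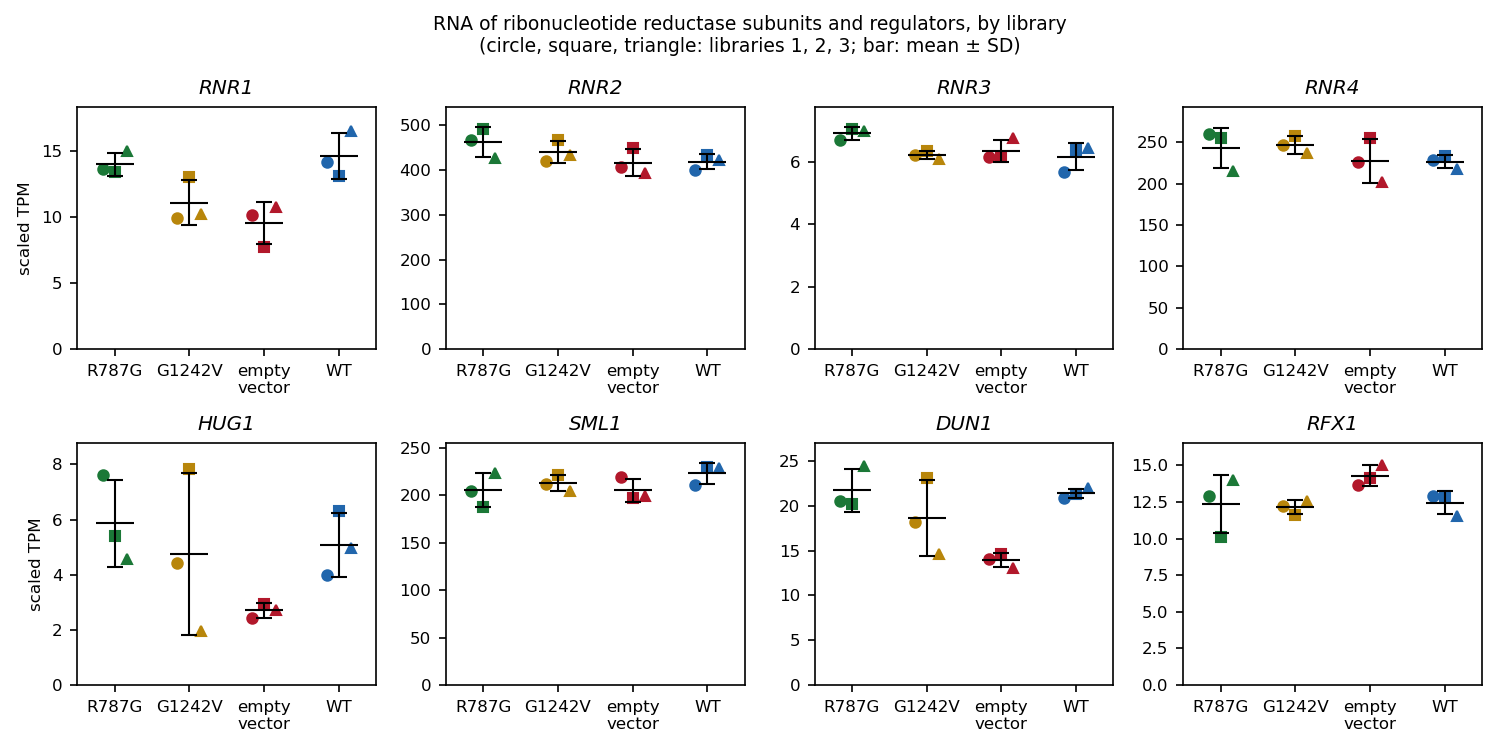
Scaled TPM (vertical axis, from 0) of each of the 8 genes in the 3 libraries of each plasmid group, with mean ± SD as black bars. RNR1, HUG1 and DUN1 lie lower and RFX1 lies higher in all empty vector libraries than in WT, while RNR2, RNR3, RNR4 and SML1 overlap between those groups.

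The small subunit genes were abundant and nearly level. RNR2 (YJL026W, chromosome X, 392404 to 393603, plus strand) ranked 266th and RNR4 (YGR180C, chromosome VII, 855264 to 856301, minus strand) ranked 529th of 6097 features. RNR2 stood at 467, 492 and 426 scaled TPM in R787G, 420, 467 and 432 in the libraries labelled G1242V, 407, 450.0 and 393 in empty vector, and 401, 433 and 422 in WT. Its empty vector and WT libraries overlapped, with a log2 fold change of -0.01 and a 95% interval of the fold from 0.88 to 1.12. RNR4 stood at 259.8, 255 and 216 in R787G, 246, 258 and 237 in the libraries labelled G1242V, 226, 255 and 202 in empty vector, and 229, 233 and 218 in WT. The log2 fold change of RNR4 in empty vector over WT was 0.00 (interval of the fold 0.87 to 1.16). The highest library exceeded the lowest by 1.25-fold for RNR2 and 1.29-fold for RNR4. Neither gene passed in any of the 4 comparisons, the smallest adjusted p of limma being 0.288.

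HUG1 (YML058W-A, chromosome XIII, 158760 to 158966, plus strand) encodes a small inhibitor of the reductase and, like RNR3, is induced by damage through release of Rfx1. It was the lowest of the 8 genes, with a mean of 4.60 scaled TPM. It stood at 7.61, 5.40 and 4.56 in R787G, 4.44, 7.82 and 1.97 in libraries 1, 2 and 3 labelled G1242V, 2.43, 2.94 and 2.74 in empty vector, and 3.98, 6.30 and 4.96 in WT. The empty vector libraries lay below all WT libraries. The log2 fold change of empty vector over WT was -0.70 (SE 0.32), which did not pass (limma adjusted p = 0.177), with a 95% interval from -1.41 to 0.01. R787G over empty vector was 0.87 (SE 0.32, limma adjusted p = 0.151). It passed in 1 of 15 alternative settings, when the libraries labelled G1242V were left out of the fit (limma adjusted p = 0.0498). HUG1 is short, at 207 bases, and TPM does not give the number of reads behind these low values.

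SML1 (YML058W, chromosome XIII, 159383 to 159697, plus strand), the gene of the Rnr1 inhibitor, lies 416 bases beyond the end of HUG1 on the same strand. It was about as abundant as RNR4, at a mean of 212 scaled TPM, and ran from 188 to 223 in R787G, 205 to 221 in the libraries labelled G1242V, 197 to 219 in empty vector and 210 to 229.5 in WT. The groups overlapped in every comparison, and the log2 fold change of empty vector over WT was -0.12 (95% interval -0.29 to 0.05). Dun1 acts on Sml1 as a protein, which RNA levels do not show.

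DUN1 (YDL101C, chromosome IV, 280307 to 281848, minus strand), the kinase gene of this branch, passed in 2 comparisons. It stood at 20.5, 20.2 and 24.4 scaled TPM in R787G, 18.2, 23.1 and 14.6 in libraries 1, 2 and 3 labelled G1242V, 14.1, 14.6 and 13.1 in empty vector, and 20.9, 21.3 and 22.0 in WT. No empty vector library reached the lowest WT or R787G library. DUN1 fell in empty vector, to 13.9 ± 0.780 against 21.4 ± 0.533 in WT, with a log2 fold change of -0.58 (SE 0.13, limma adjusted p = 0.0491). It was higher in R787G, at 21.7 ± 2.36 against 13.9 ± 0.780 in empty vector (log2 fold change 0.60, SE 0.13, limma adjusted p = 0.0403). R787G and WT overlapped, at a log2 fold change of 0.02 (95% interval -0.27 to 0.30).

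RFX1 (YLR176C, chromosome XII, 507797 to 510232, minus strand), the repressor gene, stood at 12.9, 10.1 and 14.0 scaled TPM in R787G, 12.2, 11.6 and 12.6 in the libraries labelled G1242V, 13.7, 14.1 and 15.1 in empty vector, and 12.9, 12.9 and 11.5 in WT. The empty vector libraries lay above all WT libraries by a small margin. The log2 fold change was 0.19 (SE 0.10) and did not pass (limma adjusted p = 0.239).

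**Figure D3:**
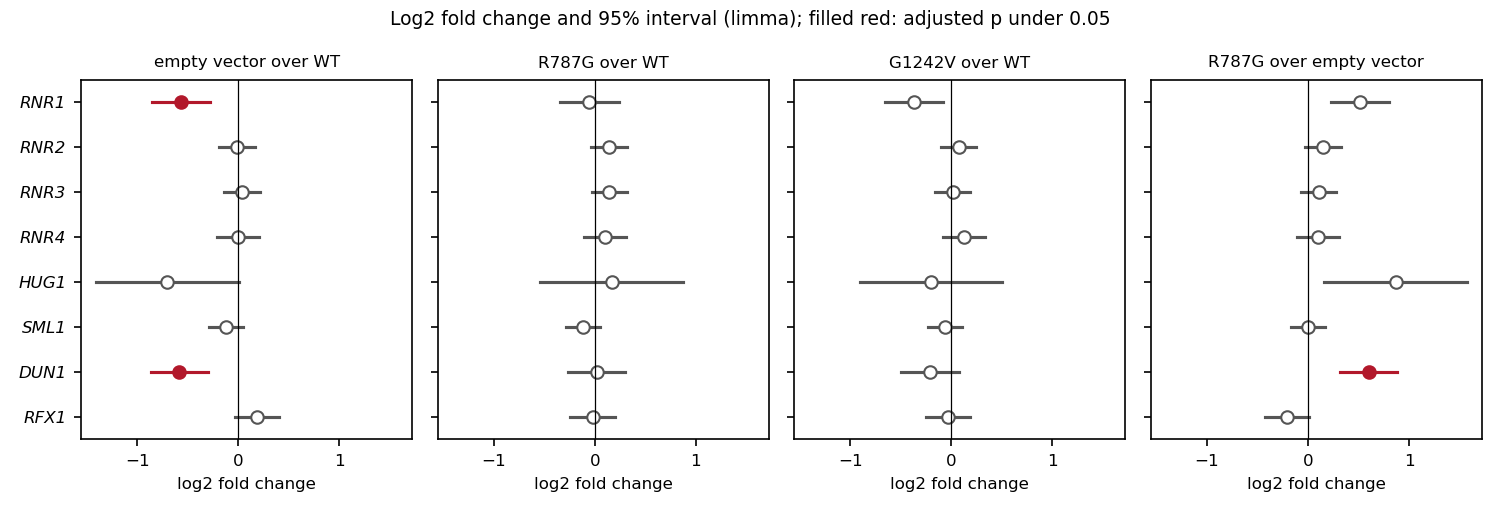
Log2 fold change (horizontal axis) with its 95% interval from limma for the 8 genes in 4 comparisons, filled red where the adjusted p is under 0.05. RNR1 and DUN1 are lower in empty vector than in WT and DUN1 is higher in R787G than in empty vector, while the intervals of RNR2, RNR3 and RNR4 include 0 in each comparison.

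In empty vector against WT, 2 of the 8 genes passed, both lower, where 2.64% of all features passed, 1.13% as higher and 1.51% as lower. That split depended on the scaling: 69 of the 161 features were higher as scaled here, 154 of 206 with TPM as deposited and 82 of 151 with quantile normalization. The groups did not overlap for 4 of the 8, with RNR1, HUG1 and DUN1 lower and RFX1 higher, where 35.7% of all features did not overlap, 17.3% higher and 18.4% lower. The median log2 fold change of the 8 genes was -0.06, and that of all features tested was -0.01. Of RNR2, RNR3, RNR4 and HUG1, 4 genes that Rfx1 represses, RFX1 itself not being counted, none passed in either direction by limma. None had an unadjusted p under 0.05, where 28.7% of all features did, and HUG1 came nearest (limma unadjusted p = 0.0518). Of the log2 fold changes of these 4 genes 2 lay above 0 and 2 below. Leaving out each of the 6 libraries in turn ended both calls, with adjusted p from 0.0622 (RNR1, without empty vector library 1) to 0.177 (RNR1, without WT library 3). The values then ranged from -0.65 to -0.44 for RNR1 and from -0.62 to -0.54 for DUN1, and TPM as deposited, no filter, no variance trend and a replicate block also ended both calls (adjusted p 0.0600 to 0.0932). Quantile normalization and a fit of only the 2 groups ended that of RNR1 (0.0622 and 0.0694) and kept that of DUN1 (0.0482 and 0.00871). Both were kept in a fit without G1242V libraries, at an adjusted p by limma of 0.0459 for RNR1 and 0.0058 for DUN1.

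In R787G against WT none of the 8 genes passed by limma, and none had an unadjusted p under 0.05, where 0% and 6.87% of all features did. RNR3 was the only gene of the 8 whose groups did not overlap, where 13.1% of all features did not, 7.35% higher and 5.77% lower. RNR2, RNR3, RNR4 and HUG1 had log2 fold changes of 0.10 to 0.17, against a median of 0.00 over all features tested. The 95% interval of each included 0. In R787G against empty vector DUN1 alone passed, as higher, where 2.36% of all features did, 1.74% as higher and 0.623% as lower. RNR1, HUG1 and DUN1 were higher without overlap, where 23.8% of all features did not overlap, 12.5% higher and 11.3% lower. The DUN1 call was lost without each library of these groups in turn except R787G library 1 (adjusted p 0.0767 to 0.137), and with TPM as deposited, no filter, no variance trend or a replicate block (0.0529 to 0.0818). These comparisons share libraries, so their agreement is not independent.

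In the libraries labelled G1242V against WT none of the 8 genes passed by limma and 1, RNR1, had an unadjusted p under 0.05, where 4.58% (1.98% higher and 2.59% lower) and 26.9% of all features did. Of the 279 features called 121 were higher, against 39 of 57 with TPM as deposited. RNR1 was lower and RNR4 higher without overlap, where 40.4% of all features did not overlap, 20.8% higher and 19.6% lower. The log2 fold change of RNR1 was -0.37 (SE 0.13, limma adjusted p = 0.111). Library 2, with SCC2 at the level of R787G, had the highest RNR1, HUG1 and DUN1 of the 3. Library 3, with SCC2 at the level of empty vector, had the lowest HUG1 and DUN1, at 1.97 and 14.6 scaled TPM. Without libraries 1 and 3 the log2 fold change over WT was 0.11 for DUN1 and 0.55 for HUG1, against -0.21 and -0.20 with all 3. These are values of 1 library, whose own spread is not known. Library 2 was the highest of the 3 in RNR2, RNR3, RNR4 and SML1 too, but these varied little, as in RNR3 from 6.10 to 6.35 scaled TPM.

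The balance between subunits was read within each library, where scaling cancels. RNR3 made up 32.9%, 34.6% and 31.8% of large subunit RNA in R787G, 38.5%, 32.7% and 37.3% in the libraries labelled G1242V, 37.7%, 44.2% and 38.6% in empty vector, and 28.6%, 32.8% and 28.0% in WT. The share was higher in every empty vector library than in every WT library, at 40.2 ± 3.55% against 29.8 ± 2.60% (SD, n = 3 each), a difference of 10.4 percentage points. An exact two-sided permutation test gave p = 0.1, the smallest that 3 against 3 libraries allow. For R787G and for the libraries labelled G1242V against WT the differences were 3.31 and 6.38 percentage points (exact permutation p = 0.2 each). RNR1 was lower in empty vector without overlap, while RNR3 overlapped between empty vector and WT. RNR2 over RNR4 was 1.90 ± 0.0904 in R787G, 1.78 ± 0.0675 in the libraries labelled G1242V, 1.84 ± 0.0933 in empty vector and 1.85 ± 0.0919 in WT, within the spread of the libraries. In libraries 1, 2 and 3 labelled G1242V it was 1.70, 1.81 and 1.83. Small subunit RNA exceeded large subunit RNA by 33.8 ± 4.02, 39.8 ± 2.15, 41.1 ± 8.63 and 31.2 ± 3.15 times in R787G, the libraries labelled G1242V, empty vector and WT, in that order, with overlap between empty vector and WT. In libraries 1, 2 and 3 labelled G1242V this ratio was 41.1, 37.3 and 40.9.

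**Figure D4:**
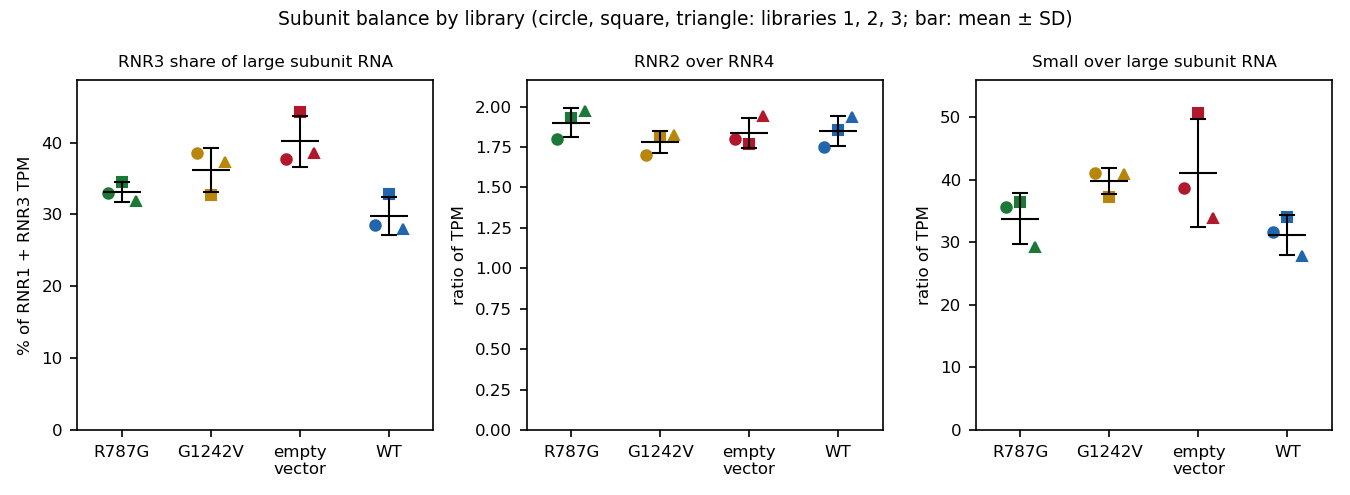
RNR3 as a percentage of RNR1 plus RNR3 TPM, the ratio of RNR2 to RNR4 TPM, and the ratio of small to large subunit TPM (vertical axes, from 0) in each library by plasmid group, with mean ± SD. The RNR3 share is 37.7% to 44.2% in empty vector and 28.0% to 32.8% in WT, and RNR2 over RNR4 is level.

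Of 14 damage-induced repair genes outside the reductase none passed as higher and 1 as lower in empty vector against WT, where 1.13% and 1.51% of all features did. Of the 14, 11 had a log2 fold change below 0 and 3 above, with a median of -0.09 against -0.01 over all features tested. Without overlap 4 were lower and 1 higher, where 18.4% and 17.3% of all features were. An unadjusted p under 0.05 was found for 5, where 28.7% of all features had one. PHR1, the photolyase gene, was 1 of the 3 above 0. It was at 46.2 ± 1.83 in empty vector and 40.0 ± 0.868 scaled TPM in WT, and did not pass (log2 fold change 0.20, limma adjusted p = 0.0635).

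Among 14 checkpoint sensors, mediators and kinases none passed by limma in empty vector against WT, and 4 had an unadjusted p under 0.05, where 28.7% of all features did. Their median log2 fold change was 0.05. The 2 of smallest p were the kinase genes TEL1 (24.0 ± 0.412 in empty vector and 20.4 ± 1.73 scaled TPM in WT) and MEC1 (36.1 ± 0.439 in empty vector and 32.1 ± 1.73 in WT), with adjusted p of 0.109 and 0.113 by limma. RAD53, the kinase gene between Mec1 and Dun1, was at 8.67 ± 0.257 in empty vector and 10.5 ± 1.37 in WT (adjusted p = 0.123 by limma).

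Of 10 other regulators of the reductase none passed in empty vector against WT, where 2.64% of all features did. An unadjusted p under 0.05 was found for 28.7% of all features and for 1 of the 10. That gene was DIF1, of a protein that carries the small subunit into the nucleus, at 81.2 ± 4.16 scaled TPM in empty vector and 63.2 ± 5.79 in WT (log2 fold change 0.36, limma adjusted p = 0.0668). It was lower in R787G, at 57.9 ± 8.45, than in empty vector (log2 fold change -0.49, limma adjusted p = 0.0369). ROX1, a repressor gene of hypoxic genes, was second by p, at 222 ± 41.7 in empty vector and 279 ± 28.5 in WT (adjusted p = 0.224 by limma). Of 10 other genes of dNTP supply none passed and 5 had an unadjusted p under 0.05, where 2.64% and 28.7% of all features did. The 2 of smallest p were those of thioredoxins, which reduce the spent enzyme: TRX1 at 319.8 ± 37.9 in empty vector and 440.2 ± 65.4 in WT, and TRX2 at 785 ± 191 in empty vector and 1563 ± 496 in WT (adjusted p 0.0659 and 0.0807 by limma).

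**Figure D5:**
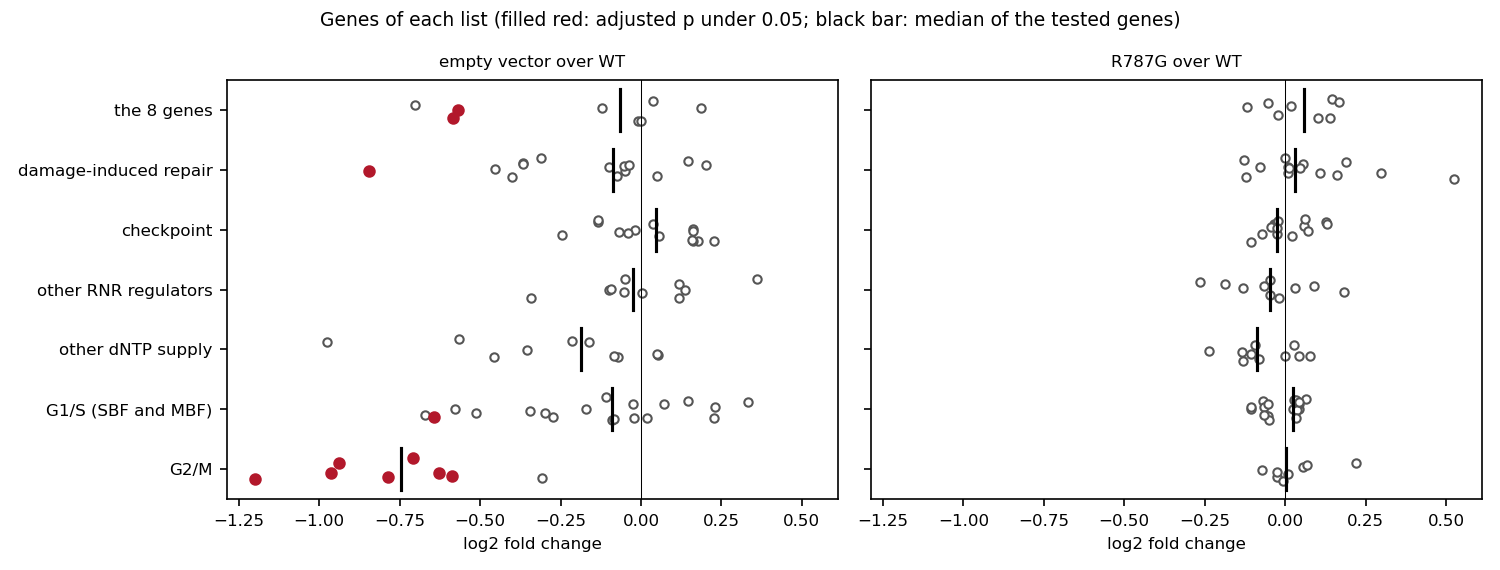
Log2 fold change of each tested gene of 7 gene groups (rows) in empty vector over WT and in R787G over WT, filled red where the adjusted p is under 0.05, with the median of each group as a black bar. RNR1, DUN1, 1 repair gene, MCD1 and 7 of 8 G2/M genes are the filled points, all below 0 in empty vector, and no gene is filled in R787G over WT.

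G2/M genes fell beside RNR1 and DUN1 in empty vector against WT, and of the G1/S genes 1 passed as lower. Of 20 further G1/S genes, 19 were tested, CLB6 being too low. In empty vector against WT 1 passed as lower and none as higher, where 1.51% and 1.13% of all features did. Of the 19, 9 had an unadjusted p under 0.05, where 28.7% of all features did. MCD1, the cohesin kleisin gene, fell to 5.18 ± 0.111 scaled TPM in empty vector, against 8.66 ± 0.693 in WT (log2 fold change -0.64, limma adjusted p = 0.0446), and was higher in R787G, at 8.22 ± 0.389, than in empty vector (0.58, limma adjusted p = 0.0397). RAD27, the flap endonuclease gene, stood at 36.5 ± 1.47 in empty vector and 28.7 ± 0.903 in WT (limma adjusted p = 0.0509), and was lower in R787G than in empty vector, at 27.3 ± 2.08 (-0.40, limma adjusted p = 0.0369). Of the 19 G1/S genes, 13 had a log2 fold change below 0 and 6 above. Without overlap 7 were lower and 3 higher, where 18.4% and 17.3% of all features were. The median log2 fold change of the G1/S list was -0.09, with values from -0.67 to 0.33. RNR1, which is not in it, had -0.57. In the G2/M list 7 of 8 genes passed as lower in empty vector against WT, where 1.51% of all features did. All 8 were lower without overlap, where 18.4% of all features were, and the median log2 fold change was -0.75. SWI5, which encodes a transcription factor, had -1.20, the mitotic cyclin gene CLB2 had -0.96, ALK1 had -0.94, and CDC5, the polo kinase gene, had -0.63. Summed over the list, G2/M RNA was 138 to 146 scaled TPM in R787G, 85.4 to 140.3 in the libraries labelled G1242V, 75.4 to 82.2 in empty vector and 137 to 140.1 in WT, with no gene at 0. G2/M RNA was thus low in the empty vector libraries, where RNR1 and DUN1 were low, and its part in that result was not tested. The list calls in empty vector against WT had the same limit as those of RNR1 and DUN1. Leaving out 1 of the 6 libraries at a time gave no called gene in the repair, G1/S, meiosis and ribosomal RNA lists, and in the G2/M list it gave 2 without empty vector library 1 and none without any other library.

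Ribosomal RNA that escaped depletion also differed. RDN25-1, a copy of the 25S gene, ranged over 151 to 217 scaled TPM in R787G, 54.1 to 201 in the libraries labelled G1242V, 171 to 202 in empty vector and 582 to 980 in WT. By library labelled G1242V, RDN25-1 was at 54.1, 201 and 93.2, and RDN18-1 at 106, 416 and 208, against 1059 to 1605 for RDN18-1 in WT. In empty vector against WT, RDN25-1 and RDN18-1 fell, with log2 fold changes of -2.03 and -1.75, and in the libraries labelled G1242V they fell with -2.91 and -2.66. In R787G against WT they were also lower without overlap, at -2.12 and -1.80, but did not pass by limma. SCR1, the signal recognition particle RNA, was at 109902, 121366 and 59542 scaled TPM in empty vector against 124540, 123726 and 147806 in WT, and did not pass (log2 fold change -0.51, limma adjusted p = 0.255). Its lowest value was in empty vector library 3, the library that stood apart in scaling. Without that library RNR1 and DUN1 had log2 fold changes of -0.65 and -0.54 and did not pass (adjusted p 0.093 and 0.111 by limma). Of 6 meiosis genes 2 passed as higher in empty vector against WT and none as lower, where 1.13% and 1.51% of all features did. They were REC8, of the meiotic cohesin kleisin (log2 fold change 0.33), and ZIP1, of the synaptonemal complex (0.51). In the libraries labelled G1242V the same 2 passed, at 0.48 and 0.56. In libraries 1, 2 and 3 REC8 was at 13.8, 13.2 and 15.0 scaled TPM, against 9.92, 9.91 and 9.45 in WT, and ZIP1 at 36.1, 32.1 and 39.6, against 24.2, 25.8 and 22.1 in WT. Of 5 a-cell and 3 tested alpha-cell genes none passed by limma in empty vector against WT. An unadjusted p under 0.05 was found for 3 and 1 of them, where 28.7% of all features had one. By log2 fold change, those of smallest p were the a-cell genes BAR1 (-0.48) and MFA1 (0.35) and the alpha-cell genes SAG1 (0.23) and MF(ALPHA)1 (0.76). The part of these differences in the reductase result was not tested.

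In R787G against WT no gene of the lists passed by limma, where 0% of all features did. An unadjusted p under 0.05 was found for 1 of 10 genes of dNTP supply and 1 of 6 meiosis genes, beside 2 ribosomal RNA features. Among all features 6.87% had one. In the libraries labelled G1242V against WT no gene of the repair, checkpoint, regulator, dNTP supply, G1/S or G2/M lists passed by limma, where 4.58% of all features did. In that order 5 of 14, 4 of 14, 3 of 10, 4 of 10, 0 of 19 and 5 of 8 had an unadjusted p under 0.05, where 26.9% of all features did. In R787G against empty vector 7 of 8 G2/M genes passed as higher and none as lower. Beside them 1 repair gene, MCD1 and BAR1 (0.83) passed as higher and DIF1, RAD27 and ZIP1 (-0.43) as lower. Among all features 1.74% passed as higher and 0.623% as lower. No checkpoint or dNTP supply gene passed by limma (3 of 14 and 2 of 10 with an unadjusted p under 0.05, where 23.1% of all features had one). All list calls in R787G against empty vector were lost without R787G library 2 or 3 or any 1 empty vector library, while 7 G2/M genes passed without R787G library 1. In the libraries labelled G1242V against WT the 2 ribosomal RNA and 2 meiosis calls were lost without library 3, and without WT library 1 there were 1 and 0.

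The genes whose profile over the 12 libraries lay closest to a member were found by the mean absolute difference of log2 values centred on each gene's mean, among 5412 features with a mean of at least 10 scaled TPM. For RNR1 they were PRE6, a proteasome subunit gene (0.0745), STI1, a co-chaperone gene (0.0776), and MMR1, of mitochondrial inheritance (0.0783), while RNR1 itself deviated from its mean by 0.24 on average. For RNR3, which deviated by 0.06, they were TMA17, NTH1, the neutral trehalase gene, and HAL5, a kinase gene, at 0.03 to 0.04. For HUG1, which deviated by 0.41, they were YBR071W, YLR049C and BAR1, the a-cell pheromone protease gene, at 0.18 to 0.19.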

How the data were processed

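RNA of 12 cultures was ribo-depleted and sequenced as stranded 50 bp single reads, per the labels' protocols. The authors deposited TPM. Among the tools listed in the submitters' processing notes are RSEM, STAR, bcl2fastq 2.17 and edgeR, with the build sacCer3. Whether counting used strand is not given in the sources used here. TPM keeps no read counts, so depth is unknown. Of 7036 features, 3 whose symbol holds a comma were shifted by a field and left out, as was 1 unnamed column.

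Each library's TPM was divided by a median-of-ratios factor from 5421 features (mean of 10 or more, no zero). Features averaging at least 1 TPM, 6097 in all, entered limma 3.58.1 in R 4.3.3 as log2(scaled TPM + 1), a scale that understates changes of low genes. All 12 libraries shared 1 fit with group as its term and a variance trend (8 residual and 3.20 prior degrees of freedom), and tests were two-sided. P-values were adjusted by Benjamini-Hochberg over all features, with calls under 0.05. The script was tested on simulated data. Members and lists were chosen with earlier results of these data known. Named were the 8 genes, list genes called (up to 4 per comparison) or of the 2 smallest p in empty vector against WT, and the 3 nearest profiles of RNR1, RNR3 and HUG1. Some list genes that the rule names are counted but not reported here. RAD53 and SCR1 are outside the rule and were added after their values were seen. The list member DDC2 was matched by synonym. Alternatives changed scaling, pseudocount, filter, trend, block and libraries.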

Additional observations from a re-analysis of the deposited data

How the results depend on the processing

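Fold changes below are log2. Of the recomputed fold changes of the 8 genes, 441 kept direction and call, 31 lost the call, 1 gained it and 31 uncalled ones changed sign. Of the recomputed list counts 519 stayed within 1.5 times and 121 did not. The RNR3 share kept its direction throughout (differences of 8.35 to 11.9 percentage points, 10.4 with a replicate block). For empty vector against WT, 161 features became 0 with no filter, no variance trend or a replicate block, and 0 to 24 without 1 library. Its 2 called members became 0 under these and with TPM as deposited, and 1 with quantile normalization or only the 2 groups fitted. RNR2 became 0.092 with TPM as deposited and 0.090 with quantile normalization; without 1 library it ran from -0.065 to 0.033, RNR3 from -0.013 to 0.065 and RNR4 from -0.083 to 0.083. For R787G against WT, 0 features became 3 with only the 2 groups and 5 when the fit left out the libraries labelled G1242V. DUN1 became -0.038 with TPM as deposited; without 1 library RNR1 ran from -0.12 to 0.033, HUG1 from -0.011 to 0.31, DUN1 from -0.067 to 0.064 and RFX1 from -0.11 to 0.10.

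For the libraries labelled G1242V against WT, 279 features became 57 with TPM as deposited, 823 with only the 2 groups, 7 without libraries 1 and 3, and 3 (without WT library 1) to 318 without 1 library. RNR3 became -0.0089 with TPM as deposited and -0.057 with quantile normalization. Without libraries 1 and 3 HUG1 was 0.55 and DUN1 0.11; without 1 library RNR3 ran from -0.039 to 0.039 and HUG1 from -0.58 to 0.21. For R787G against empty vector, 144 features (106 higher) became 288 with TPM as deposited (69 higher), 3 with no filter, 95 with no variance trend, 68 with a replicate block, 80 with only the 2 groups, and 0 to 415 without 1 library. TPM as deposited moved the median of all features by -0.15 there. Its 1 called member became 0 with TPM as deposited, no filter, no variance trend or a replicate block, 2 (DUN1 and HUG1) without the libraries labelled G1242V, and 0 or 1 without 1 library. With TPM as deposited RNR2 was -0.010, RNR3 -0.032, RNR4 -0.059 and SML1 -0.16; SML1 was -0.083 with quantile normalization and -0.061 to 0.062 without 1 library. The causes were not tested. Replicate numbers did not pair the libraries across all groups: 8 of 18 pairs of equal number had deviations correlated above 0.1. All 3 pairs of R787G with WT did (0.199, 0.146 and 0.468), and there a replicate block left 0 features and 0 members called. What depth limits is unknown, since TPM does not give it.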
